A study of Rattus norvegicus with 2 samples.

Results

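The genes of voltage-gated and neurotransmitter-gated ion channels were followed in cultured rat hepatocytes, the main cell type of the liver, taken directly from the organ and kept with or without triiodothyronine (T3), the active thyroid hormone. They were chosen by symbol: every probe set that carried 1 gene symbol of a potassium channel (Kcn), voltage-gated sodium channel (Scn), voltage-gated calcium channel (Cacn), GABA receptor channel (Gabr), ionotropic glutamate receptor (Gria, Grik, Grin) or nicotinic acetylcholine receptor (Chrn). This gave 167 of the 13698 symbols on the array, measured by 237 of its 31038 probe sets. Both groups were hepatocytes of male SD rats on collagen-coated plates in a basal hepatocyte medium with growth factors. The control group had no T3, and the treated group had T3 at 1 nM for 24 h. Each group was 1 Affymetrix rat genome expression array of total RNA, and the labels do not say how many animals or wells an array represents. Neither group has replicates, so differences are described without a test.

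Voltage-gated channels open when the membrane potential changes and carry the action potential of nerve and muscle, while inward rectifier and tandem pore potassium channels help to set the resting potential. Neurotransmitter-gated channels open when GABA, glutamate or acetylcholine binds, and most are assembled from several different subunits. A pore-forming subunit makes the ion path, and an auxiliary subunit changes the gating or the surface level of the channel but makes no pore. Hepatocytes fire no action potentials. Potassium channels are known in liver cells for their part in volume regulation, bile formation and the membrane potential that drives uptake.

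Each value below is a MAS5 signal in arbitrary units, which the authors had scaled to a common level per array. A detection call compares matching with deliberately mismatched probes, and present is used here only in that sense. Signals of different probe sets depend on their probes, so where they are ranked or summed below they are not expression levels. Sums over a marker list serve only to set the arrays side by side. Present calls covered 56.7% of all probe sets in control and 55.6% with T3. The hepatocyte markers Alb, Ttr, Apoa1, Hnf4a, Cps1 and Tat were present on both arrays. Of 10 neuronal markers 4 genes were present on both arrays, Map2, Nefl, Eno2 and Tubb3. Snap25, Syt1, Rbfox3, Stmn2 and Gap43, which mark neurons, were present on neither. The summed signal of the brightest probe set per neuronal marker was 775 in control and 868 with T3, with 359 and 434 from Map2 and 300 and 317 from Nefl. Of 6 glial markers Mbp and S100b were present on both arrays, while Gfap and Sox10 were among those on neither, with sums over the list of 42.7 and 45.9. Of 7 muscle markers Acta2, Actc1, Des and Tagln were present on both arrays, and Myh11, Myh6 and Tnnt2 on neither, with sums of 1337 and 1262. Bile duct markers were present on both arrays in 4 of 6 genes (Cftr, Epcam, Krt19 and Krt7, sums 2824 and 2480). Stellate cell and fibroblast markers were present in 4 of 8 (sums 2084 and 1838). Vim alone gave 1621 and 1418 of these sums, while Pdgfrb, Dcn and Lum were on neither array. Lrat was past 1.5-fold lower with T3, at 13.8 and 7.32. Of 5 endothelial and 5 leukocyte markers measured, 4 of each list were on neither array. The others, Egfl7 (31.0 and 47.8 in 1 probe set) and Cd163 (4.79 and 7.64 in 1 probe set), were past 1.5-fold higher. Among the neuronal and glial markers, Syp and S100b were past 1.5-fold higher with T3, and 1 probe set each of Mbp and Tubb3 was lower. The part of such other cells in the channel signals was not tested, and in whole cultures fewer cells of a type and less RNA per cell cannot be told apart.

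Most ion channel genes were not detected in these hepatocytes. Present on both arrays were 23 of the 237 probe sets, or 9.70%, where 53.2% of all probe sets on the array were. A further 10, or 4.22%, were present on 1 array only, where 5.83% of all probe sets were. Of these 6 were present with T3 and 4 in control. The remaining 204, or 86.1%, were present on neither array, against 40.9% of all probe sets. By gene, 20 of 167 (12.0%) had a probe set present on both arrays, where 66.8% of all genes with a symbol did, 10 had one on 1 array at most, and 137 had none. An absent call shows no transcript at the sensitivity of these probes and is not a measurement of 0.

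**Figure D1:**
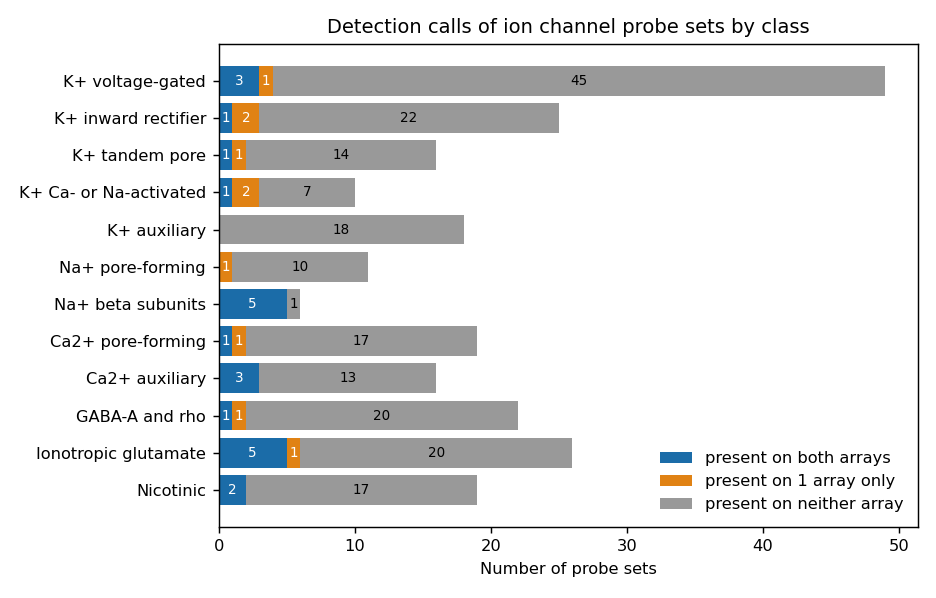
Detection calls of the ion channel probe sets by class, with the number of probe sets on the horizontal axis. Colours separate probe sets present on both arrays, on 1 array only and on neither. The 6 sodium channel beta subunit probe sets include 5 present on both arrays, while the 18 potassium channel auxiliary probe sets include 0; the ionotropic glutamate bar includes 3 probe sets of Grina and Grinl1a.

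The highest signals among the present probe sets came from symbols that encode no channel subunit. Grina, a membrane protein named for its association with the NMDA receptor, had signals of 915 in control and 859 with T3, a quotient of T3 over control of 0.939. Grinl1a had signals of 951 and 929 in one probe set and 208 and 199 in the other. The rat gene table names Grinl1a as Polr2m, a subunit of RNA polymerase II. These 3 probe sets were present on both arrays with quotients between 0.939 and 0.978, so their arrays differed little. Without them 20 of 234 probe sets, of 18 genes, were present on both arrays.

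The 20 present probe sets of true channel subunits had low signals for detected probe sets of this array. Their mean signal over both arrays ran from 7.73 to 165, with a median of 24.5. The median over all probe sets present on both arrays was 104, and 19 of the 20 lay below it. The exception was Chrnb1. With detection p-values under 0.01 required on both arrays, 14 of the 237 probe sets remained (5.91%, with 43.8% of all probe sets). Of these 11 were of channel subunits. They included Cacnb2, Cacnb3, Chrnb1, Gria3, Kcnj3, Kcnk5, Kcnma1, Kcns3, Scn4b and 1 probe set of Scn3b.

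Auxiliary subunits were detected in 8 of 40 probe sets (20.0%) and pore-forming subunits in 12 of 194 (6.19%). By gene these were 6 of 30 and 12 of 135. All 10 probe sets present on 1 array only were of pore-forming subunits. The auxiliary ones came from sodium and calcium channels, and 0 of the 18 potassium channel auxiliary probe sets was present on either array.

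Potassium channels, the largest family with 118 probe sets of 77 genes, had 6 probe sets present on both arrays. Kcnk5 encodes TASK-2, a tandem pore channel that carries a background potassium current and opens at alkaline external pH. It gave 68.2 without and 74.2 with T3, a quotient of 1.09, so the arrays differed little. Kcns3, a modifier subunit that makes no channel alone but alters Kv2 channels, had 53.9 and 42.8, or 0.795 times control.

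Among the other present potassium channels, Kcnh3, a voltage-gated channel of the ether-a-go-go family known from brain, had signals of 38.7 and 50.9. Kcnj3, which encodes the G protein-gated inward rectifier GIRK1, had 28.3 and 35.4. Kcnma1, the large-conductance calcium-activated channel, had 10.8 and 12.9. These 3 were higher on the T3 array, by quotients of 1.32, 1.25 and 1.198, all inside 1.5-fold. Kcnd1, a fast-inactivating voltage-gated channel, had 8.27 and 7.19.

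Sodium channels split by subunit type. Of 11 probe sets for 10 pore-forming genes, 0 were present on both arrays, and Scn7a alone was present on 1 of them. Of 6 probe sets for the 4 beta subunits, single-span proteins that modify gating and also act in cell adhesion, 5 were present on both. Scn3b had 59.6 and 59.3 in one probe set, a quotient of 0.994, and 32.4 and 21.0 in the other, a quotient of 0.647. The probe sets of this gene thus gave different sizes of quotient. Scn4b had 11.9 and 14.4, a quotient of 1.21.

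Calcium channels had 4 of 35 probe sets present on both arrays, 3 of them auxiliary. Cacnb3 encodes a cytoplasmic beta subunit that brings the pore-forming subunit to the surface. Its signals of 102 and 100.2 were nearly equal, a quotient of 0.985. Cacnb2, another beta subunit, had 16.8 and 23.9, a quotient of 1.42, just inside 1.5-fold. Cacng4, of the gamma family that also accompanies AMPA receptors, had 12.5 and 13.9.

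Of 10 genes for pore-forming calcium channel subunits, 1 was present on both arrays. This was Cacna1c, the L-type subunit of heart and smooth muscle, at 12.8 and 9.99 in one probe set and absent or marginal in the other, at 5.37 and 5.49. Cacna1d, the other broadly expressed L-type subunit, was present in control at 15.8 and absent with T3 at 12.2 in 1 of 3 probe sets. The other 2 were absent on both arrays and higher with T3, at 0.699 and 1.31 and at 0.613 and 0.701. The 8 further pore-forming genes and both alpha-2-delta genes measured, Cacna2d1 and Cacna2d3, were present on neither array.

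GABA receptor channels had 1 of 22 probe sets present on both arrays. That was Gabrd, the delta subunit of extrasynaptic receptors, at 6.77 in control and 10.4 with T3, a quotient of 1.54. Its other probe sets were absent on both arrays, with quotients of 1.48 and 1.09. A GABA-A receptor is a pentamer that needs alpha and beta subunits, and 0 of 5 alpha, 0 of 3 beta and 0 of 3 gamma genes were present on either array. No signal of these 11 genes was above 8.85. Gabre, listed from knowledge of liver cells, was absent throughout.

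Ionotropic glutamate receptors had 2 channel probe sets present on both arrays besides Grina and Grinl1a. Gria3, an AMPA receptor subunit, had signals of 20.9 and 23.6, while its other probe set was absent at 14.5 and 7.35. Grin2a, a glutamate-binding NMDA receptor subunit, had 8.99 and 7.33, and Grin2c, of the same type, was present in control only, at 21.6 and 27.7. The NMDA receptor also needs the GluN1 subunit encoded by Grin1, whose 2 probe sets were absent on both arrays with signals no higher than 4.48. Of 5 kainate receptor genes 0 were present on either array.

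Nicotinic receptors had 2 of 19 probe sets present on both arrays. Chrnb1, the beta subunit of the muscle-type receptor, had signals of 154 and 177, a quotient of 1.15. This was the highest signal of any channel subunit probe set, although its second probe set was absent at 4.97 and 0.746. The muscle-type receptor also needs alpha-1, delta and either gamma or epsilon subunits, and Chrna1, Chrnd, Chrng and Chrne were absent on both arrays. Chrnb4, a neuronal-type beta subunit, had 13.0 and 10.5, and 0 of 9 alpha genes was present on either array.

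**Figure D2:**
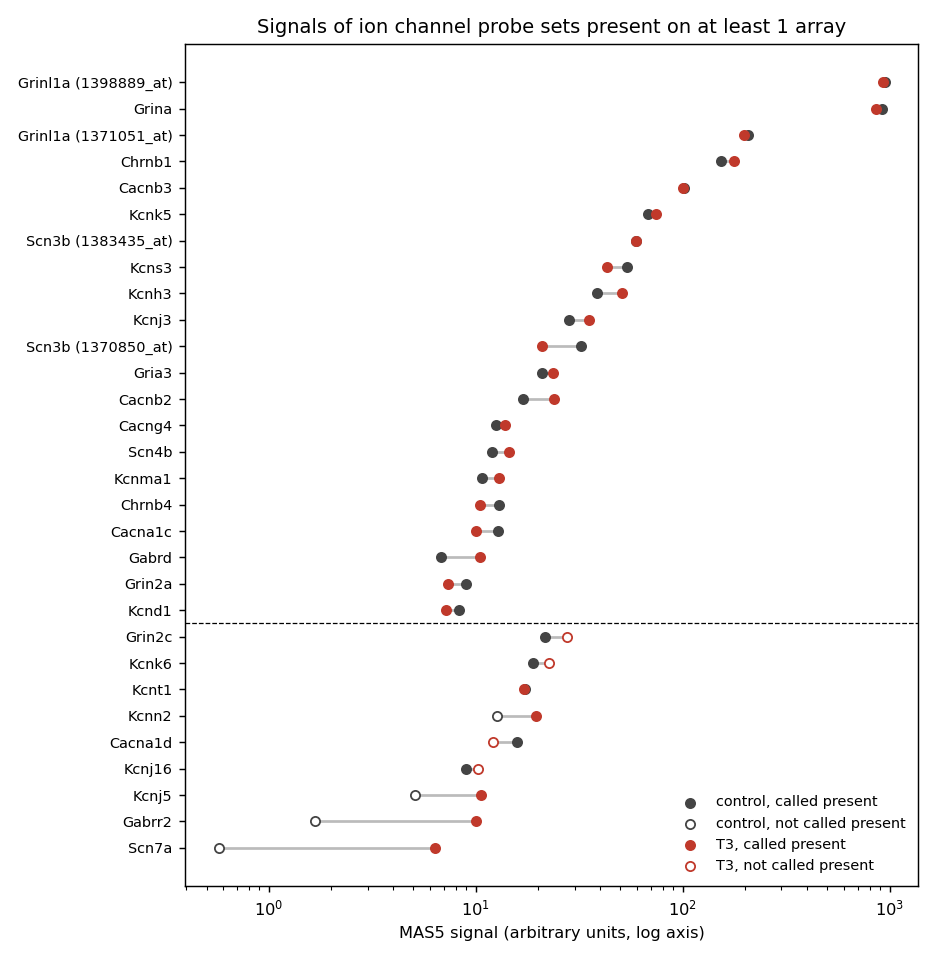
MAS5 signals (arbitrary units, log axis) of ion channel probe sets present on at least 1 array, leaving out genes not reported here, with control in black and T3 in red. Filled points were called present and open points were not; probe sets below the dashed line were present on 1 array only, where Scn7a runs from 0.572 in control to 6.37 with T3.

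Among ion channels 7 probe sets were past 1.5-fold higher with T3 and present on the T3 array, or 2.95%, where 2.43% of all probe sets were. Of these 5 were absent in control. Lower past 1.5-fold and present in control was 1 probe set, that of Scn3b described above, or 0.422%, where 1.56% of all probe sets were. At 2-fold, 4 were higher (1.69%, with 0.754% of all probe sets) and 0 lower (0.519% of all probe sets). The higher share is near the background at 1.5-fold, and all counts are small. The authors' deposited table of probe sets past 1.5-fold higher held the same 7, and their table of lower ones the same 1. The rule used here was set to follow those tables, on the same signals and calls, so this match is no separate evidence. Under quantile normalization or a loess fit on signal, 4 were higher (1.69%, with 1.95% and 2.00% of all probe sets), and Gabrd and Kcnn2 were among those that no longer passed. Over all probe sets the share of calls that were higher moved from 60.9% to 49.8% and 51.2% under these scalings.

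The largest quotients among the called probe sets rested on control signals with no present call. Scn7a, an atypical sodium channel subunit known as a sensor of sodium level in glia, had 0.572 in control and 6.37 with T3. Gabrr2, a rho subunit of GABA receptors of the retina, had 1.67 and 10.02. Both had a present call only on the T3 array, at dim signals. Kcnj5 (GIRK4), which pairs with GIRK1 in the atrial channel, had 5.08 and 10.5, while a second probe set was absent on both arrays at 2.01 and 3.24. Kcnn2 encodes SK2, a small-conductance calcium-activated channel described in liver cells, and had 12.6 and 19.6.

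Because the control signal was not called present, the T3 signal was divided by whichever was higher in control. That was its own signal or the dimmest present signal of that array (2.07). With T3, Gabrr2 was by this bound at least 4.83-fold and Scn7a at least 3.07-fold higher. The value of 2.07 comes from another probe set and is not the detection limit of Gabrr2 or Scn7a, so their bounds are not firm. For Kcnj5 and Kcnn2 the control's own signal was the higher. Their values of 2.08 and 1.56 are therefore plain quotients and not lower limits. Under quantile normalization their log2 quotients fell from 1.05 to 0.93 and from 0.64 to 0.54.

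For the 2 largest calls the sequence upstream of the gene is shown beside that of Cacnb3, which was present at nearly equal signal on both arrays (quotient 0.985). The search was for AGGTCA, the half-site that thyroid hormone receptors bind in its common form. Sequences are the 250 bases before the gene start, 5′ to 3′, from RefSeq on build GRCr8, with every CG dinucleotide in capitals. They lie at chr3:71846285-71846534, minus strand for Scn7a, chr5:52248228-52248477, plus strand for Gabrr2 and chr7:131666301-131666550, plus strand for Cacnb3.
Scn7a: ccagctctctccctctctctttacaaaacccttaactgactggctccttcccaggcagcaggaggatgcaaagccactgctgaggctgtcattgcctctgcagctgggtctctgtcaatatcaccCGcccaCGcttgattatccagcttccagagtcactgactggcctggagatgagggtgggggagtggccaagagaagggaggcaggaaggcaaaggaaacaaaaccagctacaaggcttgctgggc
Gabrr2: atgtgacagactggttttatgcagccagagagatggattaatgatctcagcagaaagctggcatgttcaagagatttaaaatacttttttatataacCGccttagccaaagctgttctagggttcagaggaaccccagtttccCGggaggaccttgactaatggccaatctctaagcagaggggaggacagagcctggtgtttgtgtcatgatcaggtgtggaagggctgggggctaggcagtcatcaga
Cacnb3: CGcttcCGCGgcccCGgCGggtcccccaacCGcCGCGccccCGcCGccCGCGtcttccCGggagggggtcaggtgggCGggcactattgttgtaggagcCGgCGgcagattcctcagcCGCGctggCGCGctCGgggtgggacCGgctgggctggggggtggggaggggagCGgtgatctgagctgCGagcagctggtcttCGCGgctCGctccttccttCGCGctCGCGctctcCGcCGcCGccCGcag
The windows of Scn7a and Gabrr2 hold 2 CG dinucleotides each and that of Cacnb3 holds 35. This contrast did not extend to the other called genes, as Gabrd held 35, Kcnn2 22 and Kcnj5 8. Among genes present on both arrays and not called, the number ran from 3 in Cacna1c to 35 in Cacnb3. AGGTCA, searched on both strands, was in none of these 3. Of the 8 called genes 5 had an upstream sequence (Gabrd, Gabrr2, Kcnj5, Kcnn2 and Scn7a), and 0 of the 5 held it, where 13.7% of 27457 such windows in the rat table did. Of all 167 ion channel genes 114 had an entry and 8 of these held the hexamer. No match says only that these letters are not in the window.

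A change of detection call did not always follow the signal. Of the 10 probe sets present on 1 array only, 4 were present on the array with the lower signal, namely Grin2c, Kcnj16, Kcnk6 and Kcnt1. Kcnk6, a tandem pore channel, was present in control at 19.0 and absent with T3 at 22.6 in 1 of 2 probe sets. Kcnj16, an inward rectifier of kidney and brain, was present in control at 8.99 and absent with T3 at 10.3. Kcnt1, a sodium-activated channel, was absent in control at 17.3 and present with T3 at 17.1 in 1 of 3 probe sets. The other probe sets of Kcnk6 and Kcnt1 were present on neither array. Over all probe sets present on 1 array only, 28.2% were present on the array with the lower signal. One array only made up 30.3% of the ion channel probe sets with any present call, and 9.86% over the whole array.

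The quotient of T3 over control signal spread far more among ion channel probe sets that were not detected. For the 23 present on both arrays the log2 quotient had a median of 0.12 and an interquartile range of 0.41. Their quotients ran from 0.647 in Scn3b to 1.54 in Gabrd, with 12 above 1 and 11 below. For the 204 present on neither array the median was 0.21 and the interquartile range 1.68. There the quotients ran from 0.0553 to 16.01, with 115 above 1 and 89 below. The interquartile range was thus 4.04 times as wide without detection, but 1.02 times with a pseudocount of 16 added to every signal. The 23 include the probe sets of Grina and Grinl1a. Without these, 20 remained with an interquartile range of 0.51, 12 above 1 and 8 below, and the factor was 3.27. Over the whole array the log2 median was -0.01 with detection on both arrays and 0.13 with detection on neither, and the interquartile ranges were 0.24 and 1.42, a factor of 5.86.

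Quotients past a fold threshold were correspondingly common where nothing was detected. Past 1.5-fold in either direction were 129 of the 204 undetected ion channel probe sets, or 63.2%, where 56.8% of all undetected probe sets were. Past 2-fold were 90, or 44.1%, with 39.0% of all undetected ones. Of the 23 detected on both arrays 3 were past 1.5-fold, or 13.0%, with 3.93% over all probe sets so detected, and 0 were past 2-fold, with 0.551%. The 3.93% is not matched for signal, and most detected probe sets of the array were brighter. At a geometric mean signal of 4 to 16, 1 of 8 passed 1.5-fold (12.5%), with 23.6% over the array. Between 16 and 64, 2 of 9 did (22.2%, with 6.55%), and above 64, 0 of 6 (with 0.828%). Gabrd and Scn3b were among the 3 past 1.5-fold. With no detection rule at all, 83 ion channel probe sets (35.0%) would be past 1.5-fold higher and 54 (22.8%) lower, where 15.7% and 11.8% of all probe sets would be.

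**Figure D3:**
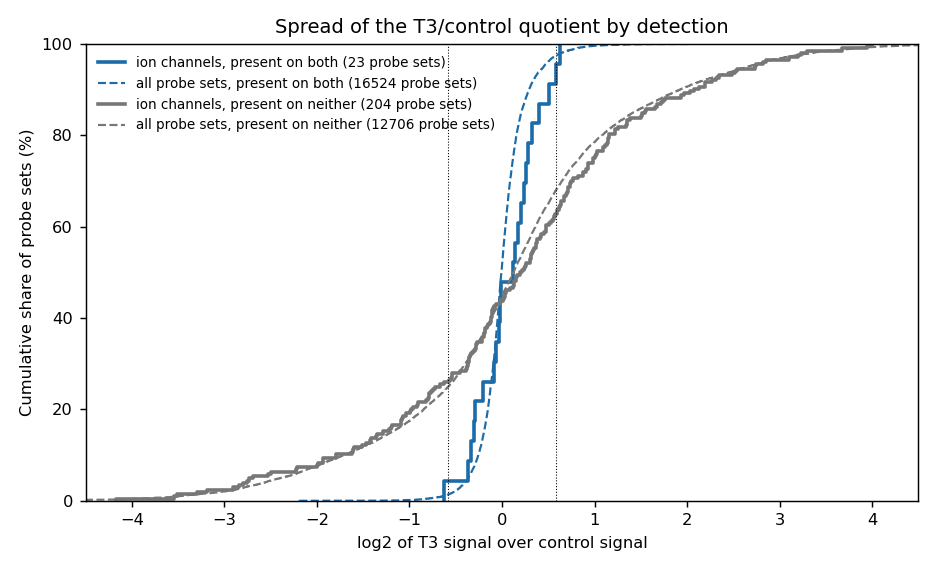
Cumulative share (%) of probe sets against the log2 of T3 signal over control signal, for probe sets present on both arrays (blue) and on neither (grey). Solid lines are ion channels (23 and 204 probe sets), dashed lines all probe sets, and dotted verticals mark 1.5-fold; the grey solid and dashed lines run close together, and both are far wider than the blue ones.

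The extremes among absent probe sets were quotients of small signals. Grik3, a kainate receptor subunit, had signals of 0.410 in control and 6.56 with T3. Gria1, an AMPA receptor subunit, had 0.431 and 6.63, and Chrna1, the muscle nicotinic alpha subunit, 0.785 and 10.01. These 3 had the highest quotients, 16.01, 15.4 and 12.7, from signals called absent on both arrays. At the low end, Gabra6 had 7.62 and 0.422, Cacna2d3 had 5.09 and 0.437, and Kcnip4, a calcium-binding partner of Kv4 channels, had 7.58 and 0.665. Their quotients were 0.0553, 0.0859 and 0.0878. In all 6 the difference was under 10 signal units. The median absolute difference between arrays was 1.91 units in the 204 undetected probe sets and 5.49 units in the 23 detected ones.

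The spread followed the signal in ion channels much as over the array. At a geometric mean signal under 4, the interquartile range of log2 quotients was 2.07 in 126 undetected ion channel probe sets and 2.23 in all undetected ones. Between 4 and 16 it was 1.04 in 69 undetected and 0.56 in 8 detected ion channel probe sets. Over the array it was 1.09 and 0.67 in that band. Between 16 and 64 it was 0.38 in 9 undetected and 0.41 in 9 detected ones, with 0.54 and 0.38 over the array. In this last band the ranges of undetected and detected ion channel probe sets were close, each over few members. Above 64 it was 0.14 in the 6 detected ones, which include those of Grina and Grinl1a, and 0.18 over the array.

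**Figure D4:**
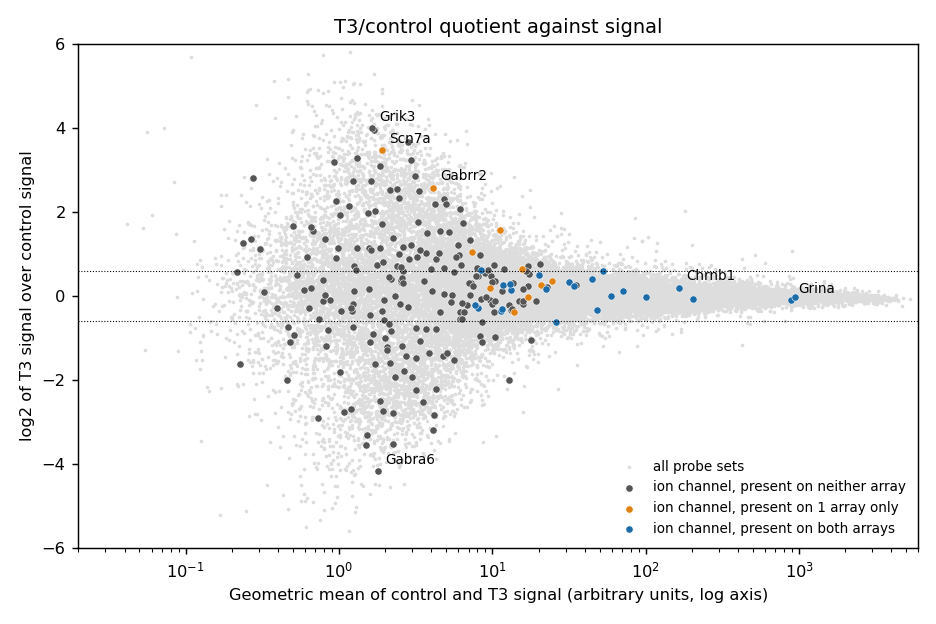
The log2 of T3 over control signal against the geometric mean of both signals (arbitrary units, log axis) for all probe sets (light grey) and ion channel probe sets by detection. Dotted lines mark 1.5-fold; the 126 undetected ion channel probe sets with a mean signal under 4 fill the wide left part, and Grina and Grinl1a at the right lie near 0.

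Of all undetected probe sets 55.1% were higher with T3, and of the undetected ion channel ones 56.4%. Of 20 undetected glutamate receptor probe sets 15 were higher with T3, with a median log2 quotient of 0.83. Of 20 undetected GABA receptor ones 7 were higher, with a median of -0.47. Potassium channels had 62 of 106 higher and a median of 0.25, calcium channels 19 of 30 and 0.28. Sodium channels had 5 of 11 and -0.16, and nicotinic receptors 7 of 17 and -0.11. These counts are of signals with no present call, and the differences between families were not tested.

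Probe sets of one gene disagreed on detection in some genes. Of 48 ion channel genes with several probe sets, 11 had at least 1 present on both arrays. All their probe sets were present in 3 genes, with Grinl1a and Scn3b among them. In the other 8 every further probe set was present on neither array. Kcnj3 had further probe sets at 3.004 and 12.6 and at 14.96 and 12.0, and Kcnma1 at 1.38 and 3.62 and at 0.691 and 0.899, all absent. The second probe set of Cacnb2 was at 0.446 and 0.847 and that of Chrnb4 at 15.4 and 14.3.

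Channels described in liver cells were mostly below detection. Of 19 such genes listed, Kcnk5 and Kcnma1 were present on both arrays, Kcnn2 with T3 only, and 16 on neither. Kcnq1, a voltage-gated channel that works with Kcne subunits in epithelia, was absent at 1.33 and 1.09, and Kcne1, Kcne2 and Kcne3 were absent as well. Kcnn4, the intermediate-conductance calcium-activated channel, was absent at 9.24 and 9.08. Kcnj11, the pore of the ATP-sensitive channel, was marginal on both arrays at 9.22 and 11.8 in one probe set and absent in 2 others.

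Channel genes known to respond to thyroid hormone in the heart were not called present with T3. Kcna5, which encodes Kv1.5, was absent in control at 1.16 and marginal with T3 at 8.36, so no fold is given. Kcnd2, Kcnd3, Kcne1 and Hcn4 were absent on both arrays. Hcn2, a pacemaker channel gene, was present in control at 67.8 and absent with T3 at 56.1.

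Other kinds of ion channel were detected at about the share of all genes. From a list of 55 measured channel and channel-partner genes outside the rule (intracellular, chloride, TRP, purinergic, store-operated, water and mitochondrial channels), 35 (63.6%) were present on both arrays, where 66.8% of all genes with a symbol were. Vdac2, a porin of the outer mitochondrial membrane, had 1397 and 1392, Clic1 2240 and 2163, and the store-operated calcium channel gene Orai1 320.4 and 313. Past 1.5-fold higher were 2 probe sets, the pacemaker channel gene Hcn3 (24.8 and 41.8) and Abcc9, a partner of Kcnj8 and Kcnj11 that was marginal in control (2.77 and 7.44), and 0 were lower. These are 2.53% of the 79 probe sets of that list, near the 2.43% of all probe sets. The median log2 quotient of the 43 present probe sets was -0.01.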

How the data were processed

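RNA of 1 control and 1 T3-treated culture was measured on 1 array each. Per the file headers, the deposited intensity of each probe set is a normalized MAS5 signal, given beside its detection call and p-value. In the deposited p-values, 0.0461 was the highest with a present call and 0.0676 the lowest with an absent one. The authors' deposited ratio is the T3 over the control signal. Affymetrix Expression Console was used, per the submitters' processing notes. The sources used here give neither a version nor a scaling target. The authors' series value table held the same intensities for all 31038 probe sets, after 57 array controls were left out.

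Log2 quotients were taken from the signals as deposited, without a pseudocount, in Python 3.11.15 with pandas 2.3.3 and numpy 2.4.6. A probe set was called when its quotient reached 1.5-fold and it was present on the brighter array, the rule that the authors' deposited tables appear to use. Symbols are those of the file, without the endings for predicted or mapped genes; 236 of 237 probe sets matched the RefSeq gene table of rat assembly GRCr8, and 1 with several symbols was left out. Named in the text were probe sets present on both arrays at or above the median signal, called ones, the brightest present of each family, the 3 highest and lowest quotients among absent ones, the fixed lists, and genes whose probe sets disagreed; other present ones were added after their values were seen. Members and lists were chosen with earlier results of these data known. Some genes are counted in totals but not reported singly here. Counting was tested on simulated data with little noise and changes planted only in probe sets present on both arrays. That checks the code and not the calls made here. With 1 array per group the number of arrays limits precision, and nothing measures how cultures vary.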

Additional observations from a re-analysis of the deposited data

How the results depend on the processing

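Without replicates no array could be left out, and no paired analysis was possible because each group is 1 array. A count or spread was taken as stable when it moved by no more than 1.5 times, and the median when it stayed within its exact binomial interval over the 23 present probe sets (-0.09 to 0.26). Of 54 alternative values, listed with earlier results of these data known, 42 were stable and 12 moved. Of the stable ones, 6 used the series value table, which holds the same intensities, so they could not move. Another 6 used median centring, which shifted every log2 quotient by only 0.0066 and cannot change a spread. These 2 settings are no check of stability. Higher past 1.5-fold were 7 ion channel probe sets (2.95%, with 2.43% of all probe sets). Under quantile normalization and loess 4 were higher (1.69%, with 1.95% and 2.00% of all). With a pseudocount of 16, 1 was (0.422%, with 0.383% of all), and with no detection rule 83 were (35.0%, with 15.7%). With detection p-values under 0.01, 4 were higher, and with mean signals at or above the median of all probe sets, 1 was. For these last settings no share over all probe sets was computed. Lower was 1 (0.422%, with 1.56% of all), against 0 with the pseudocount (0.200% of all) and 54 with no detection rule (22.8%, with 11.8%). Present on both arrays were 23 (9.70%, with 53.2% of all probe sets), against 14 with detection p-values under 0.01 (5.91%, with 43.8% of all). With the pseudocount the interquartile range of log2 quotients was 0.25 in present and 0.25 in absent ion channel probe sets, a factor of 1.02 in place of 4.04, since a pseudocount shrinks dim quotients most. Of the values of single named probe sets, 316 were stable within the spread of like probe sets, 19 moved, all with the pseudocount, and 0 called ones changed sign. The 316 include 67 from the series value table and 67 from median centring. Neither the series value table nor a pseudocount can change a sign. The spread of absent probe sets at or above the median signal was not computed, since 2 were left.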
